A study of Danio rerio with 10 samples.

Results

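Ribosomal protein genes encode the proteins of the cytosolic ribosome. The 87 genes described here are the protein-coding genes of the zebrafish expression tables whose names follow the rps and rpl nomenclature (rps or rpl and a number, rpsa, rplp0, rplp1 or rplp2), with the rps6k kinases left out. They were 87 of 25672 protein-coding genes and of 32265 genes in all. Of them, 37 carry small subunit names and 50 carry large subunit names. The rule used no measured value. It also took in 2 genes that carry such a name without encoding a structural protein of the ribosome, namely rps19bp1, a nucleolar protein that binds Rps19, and rpl7l1, a relative of Rpl7 known in human cells from ribosome assembly. rps20, listed as a processed transcript, fell outside the rule.

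The study expressed human TPM3, the slow alpha-tropomyosin of skeletal muscle, in zebrafish to model a congenital myopathy. All fish were of the AB strain and all groups carried a human TPM3 transgene, driven by the muscle promoter of myosin light chain 2, together with a green fluorescent marker in the heart. There was therefore no fish without transgene among the samples, and TPM3(WT), the unmutated human protein, was the control for TPM3(E151A) and TPM3(E151G). Muscle of untreated adults aged 6 months was sequenced with 2 libraries per genotype, and samples labelled as whole embryos 2 days old with 1 library for each genotype and 1 for TPM3(E151G) treated with l-carnitine, which ferries fatty acids into the mitochondrion. The labels give the treatment as lasting from 28 hours to 7 days after fertilization, which goes beyond the stated age of the embryos. The extraction protocol names muscle as the starting material for every sample, and the study's text also speaks of muscle from embryos, so whether the embryonic RNA came from whole embryos or from muscle cannot be told. Which founder line was sequenced, and how many fish went into a library, is not stated in the labels or the study's methods.

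Each ribosome holds 1 copy of nearly every ribosomal protein, so their genes are known to be transcribed at high and similar rates. In vertebrates their mRNAs begin with an oligopyrimidine tract, through which the growth kinase mTOR controls their translation, and many of their genes carry snoRNAs in introns. In muscle, ribosome number is known as a limit on how much protein a fiber can make.

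Values were FPKM, fragment counts divided by transcript length and library size. Beside values, WT, E151A and E151G stand for the human TPM3 form that the fish carried. The tables give 1 FPKM column per condition, for adults the authors' value over both libraries, so no spread between libraries could be computed and no difference was tested. A difference is given as a log2 ratio of FPKM + 1, and the number of genes past 2-fold is set beside the same percentage over all genes compared, which are those that reached an FPKM of 1 in either condition. Read depth is unknown from these columns. FPKM is a relative scale, and the columns summed to between 575410 and 1404367. Mitochondrially encoded genes took 25.9% (WT), 36.2% (E151A) and 47.6% (E151G) of the adult sums, and from 13.1% to 15.4% in embryos. Skeletal muscle markers had a high summed FPKM in every condition, at 36400 (WT), 37861 (E151A) and 64644 (E151G) over 12 genes in adults. In embryos the sum was 41061 to 59386. Some of the 12 were low in adults. mylpfb stood at 0.58, 0.29 and 0.36 and tnnt3a at 1.00, 0.35 and 0.12 in the same genotype order. ckmb alone stood at 29968 with E151G. Of 11 compared in adult TPM3(E151G) against TPM3(WT), 7 were higher and 4 lower. Ovary markers were listed in adult muscle too, at a summed FPKM of 3439 with WT, 848 with E151A and 729.7 with E151G over 11 genes, all 11 of them at an FPKM of at least 1 in each genotype, and at 0.792 to 1.56 in embryos. Testis markers summed to 43.8, 261 and 6.6 in the same adult order, and erythrocyte markers to 769, 3008 and 1408. Pancreas markers summed to 180.0, 507 and 1010.0 over 4 genes and liver markers to 3.19, 35.0 and 55.3 over 5 genes. Both sums, the adult skeletal muscle sums and the mitochondrial share all stood in the order of the ribosomal protein medians given next. In bulk tissue, fewer cells of a type and less RNA per cell cannot be told apart.

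The ribosomal protein genes were among the most highly expressed genes in every condition. Their median FPKM in adult muscle was 634 with WT, 868 with E151A and 1697 with E151G. In embryos it was 784 with WT, 1106 with E151A, 1303 with E151G and 881 with E151G plus l-carnitine. The median member stood above 99.1% of the protein-coding genes in adult TPM3(WT) and above 99.4% in embryonic TPM3(WT). Of the 87 genes, 86 stood at 1 FPKM or more in every condition and 81 at 100 or more.

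**Figure D1:**
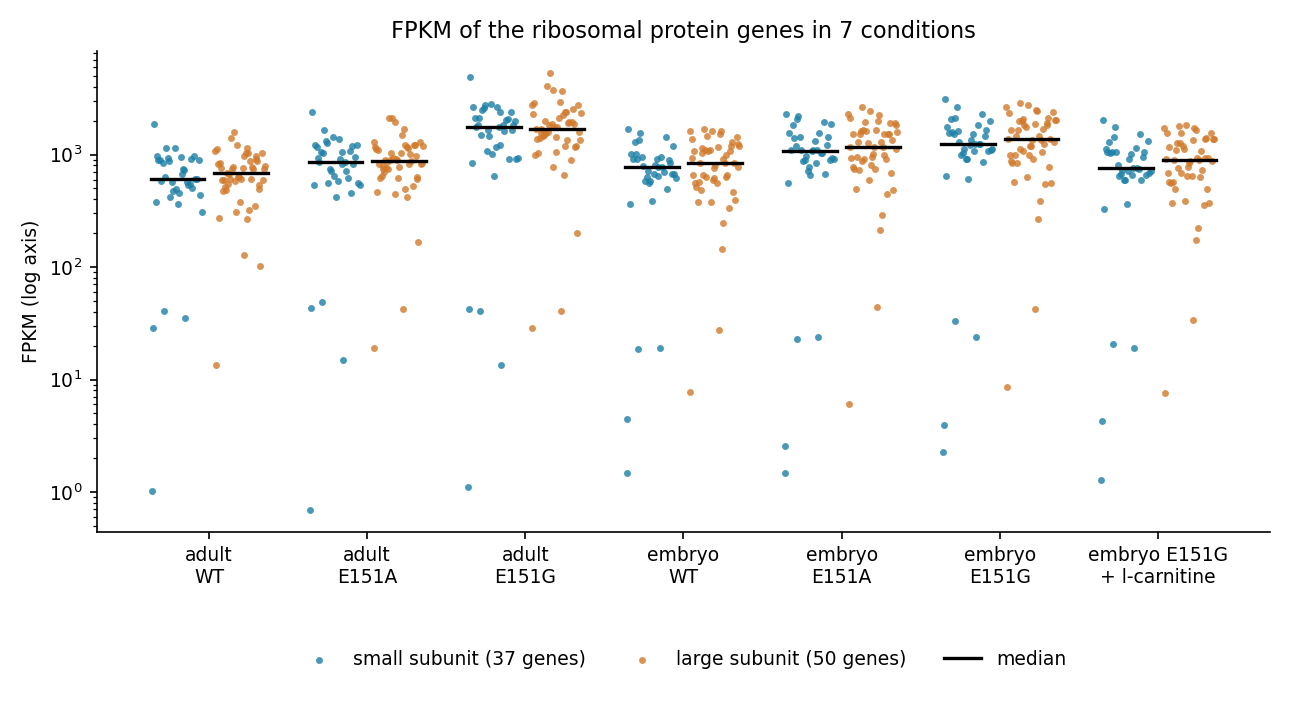
FPKM of each of the 87 genes on a log axis (1 point per gene, 37 small subunit genes in blue and 50 large subunit genes in orange, black bars the medians of each) in the 3 adult and 4 embryonic conditions. Most points lie between 100 and 5358, the medians of both subunits are higher with E151G than with WT at both ages, and a few genes lie far below the others in each column.

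Together the 87 genes held 11.4% (WT), 16.4% (E151A) and 21.3% (E151G) of the FPKM of nuclear protein-coding genes in adult muscle. This share does not depend on how the columns were scaled. In embryos it was 14.7% with WT, 18.1% with E151A, 18.9% with E151G and 15.3% with E151G plus l-carnitine. When mitochondrially encoded and all other genes were counted in the sum, the adult shares were 8.3%, 10.3% and 10.9%, and the embryonic ones 12.5%, 15.5%, 16.1% and 12.8% in the same order. The share was thus higher in both mutants than in TPM3(WT) at both ages and by either sum, and in l-carnitine-treated embryos it lay nearest to TPM3(WT).

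The level was spread over many genes. In adult TPM3(WT) the 5 highest, rps19, rpl26, rpl34, rplp0 and RPL41, held 12.2% of the summed FPKM of the 87, and in embryonic TPM3(WT) rps19, rplp2l, RPL37A, RPL41 and rplp0 held 11.5%. rps19, a small subunit protein and the gene most often mutated in Diamond-Blackfan anaemia in humans, was the highest in both controls. Its FPKM in adults was 1852 with WT, 2389 with E151A and 4889 with E151G. In embryos rps19 was at 1698 with WT, 2315 with E151A, 3098 with E151G and 2019 with E151G plus l-carnitine. rpl26, a large subunit protein near the exit of the peptide tunnel, passed it in adult TPM3(E151G), at 1600.3 with WT, 2108 with E151A and 5358 with E151G. The order of the genes was similar within an age. Across the 87 genes, Spearman's rho between the FPKM of 2 conditions was 0.982 to 0.993 within embryos and 0.911 to 0.963 within adults, and 0.752 between adult and embryonic TPM3(WT), given as a description since the values of different genes share a library.

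In adult TPM3(E151A) muscle the ribosomal protein genes lay above the typical gene, by less than 2-fold. Their median log2 ratio to TPM3(WT) was 0.40, against -0.22 over all 16865 genes compared and -0.02 over the 1249 abundant others, meaning those whose FPKM reached 100 in any of the 7 conditions. The conditions compared count among these, so a gene could enter the set through a high value in the mutant alone. Of the 87, 83 were higher and 4 lower, where 41% of all genes were higher and 59% lower. None was higher by 2-fold or more (9.9% of all genes) and 2 were lower by 2-fold or more (19.2% of all genes), namely rpl7l1 and rps19bp1. The highest ratios were those of rpl38 (0.87), rps26l (0.81), rpl31 (0.78), rpsa (0.72) and rpl28 (0.72), and the lowest of the 83 higher genes was rpl19 (0.05). rpl38, which in mice is needed for the translation of Hox mRNAs, had an FPKM of 269 with WT, 492 with E151A and 652 with E151G. The small and large subunit medians were 0.39 and 0.41.

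In adult TPM3(E151G) muscle most of the family passed 2-fold. The median log2 ratio to TPM3(WT) was 1.35, against -0.14 over all 16572 genes compared and 0.45 over 1248 abundant others. Of the 87, 84 were higher (46.1% of all genes), 73 of them by 2-fold or more (17.4% of all genes), and 2, again rpl7l1 and rps19bp1, were lower by 2-fold or more (25.5% of all genes). Of the 1248 abundant others 61% were higher, with 435 higher and 292 lower by 2-fold or more. The 73 ribosomal protein genes were 29 small subunit and 44 large subunit genes, and the subunit medians were 1.34 and 1.37. rpl12 (1.01) lay just inside the 2-fold limit and rps6 (0.98) just outside it. rps6, the protein phosphorylated by S6 kinase below mTOR, had an FPKM of 894 with WT, 935 with E151A and 1761 with E151G. The skeletal muscle, ovary, testis, erythrocyte, pancreas and liver marker sums and the mitochondrial share given above also differed between these columns. Of the pancreas markers 4 of 4, with a median log2 ratio of 2.42, and of the liver markers 4 of the 4 compared, with 2.48, were higher in TPM3(E151G) than in TPM3(WT). Their part in the result was not tested.

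The genes with the highest ratios in adult TPM3(E151G) came from several places in the ribosome. rplp2, an acidic protein of the stalk that recruits elongation factors to the large subunit, had an FPKM of 321 with WT, 419 with E151A and 1193 with E151G and a log2 ratio of 1.89. rps25, a small subunit protein known from translation that starts at internal ribosome entry sites, stood at 546 with WT, 618 with E151A and 2023 with E151G (log2 ratio 1.89). For rps25 the step lay between the 2 mutants, with a log2 ratio of 0.18 in TPM3(E151A) against TPM3(WT) and of 1.71 between TPM3(E151G) and TPM3(E151A). rpl31, at the rim of the exit tunnel, had values of 270.4 with WT, 466 with E151A and 989.9 with E151G (log2 ratio 1.87), higher at both steps. rpl28, a large subunit protein that budding yeast lacks, followed with 1.85, and the stalk protein rplp1 with 1.78. Of the 5 stalk genes (rplp0, rplp1, rplp2, rplp2l and rpl12) the median was 1.63 and the range 1.01 to 1.89. Of 5 genes at the mRNA entry and the decoding center (rps2, rps3, rps9, rps15 and rps23) the median was 1.07 and the range 0.73 to 1.67, with only rps3 above the median of the 87. Between them lay 8 genes of the exit tunnel and its rim (median 1.45), 23 genes known from Diamond-Blackfan anaemia (1.40) and the 3 genes rpl5a, rpl5b and rpl11 (1.19). In adult TPM3(E151A) the stalk and decoding medians were 0.38 and 0.35. The groups were drawn up after the values had been seen, and nothing was tested between them.

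Between the mutants, adult TPM3(E151G) exceeded TPM3(E151A) with a median log2 ratio of 0.95 over the 87 genes, against 0.09 over all 16715 genes compared. Of the 87, 83 were higher (54.8% of all genes), 33 of them by 2-fold or more (10.1% of all genes), and none was lower by 2-fold or more (9.88% of all genes). rps10 (1.005) and rpl39 (0.998) lay on either side of the limit. The highest ratios were those of rps25, rplp2 (1.51), rplp1 (1.35), rpl26 (1.35) and rpl22. Among the lowest were those of RPS27L (-0.26), rps19bp1 (-0.14), rpl7l1 (-0.07) and rpl22l1 (0.25). All 3 adult comparisons are built from the same 3 columns and are not independent of each other.

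**Figure D2:**
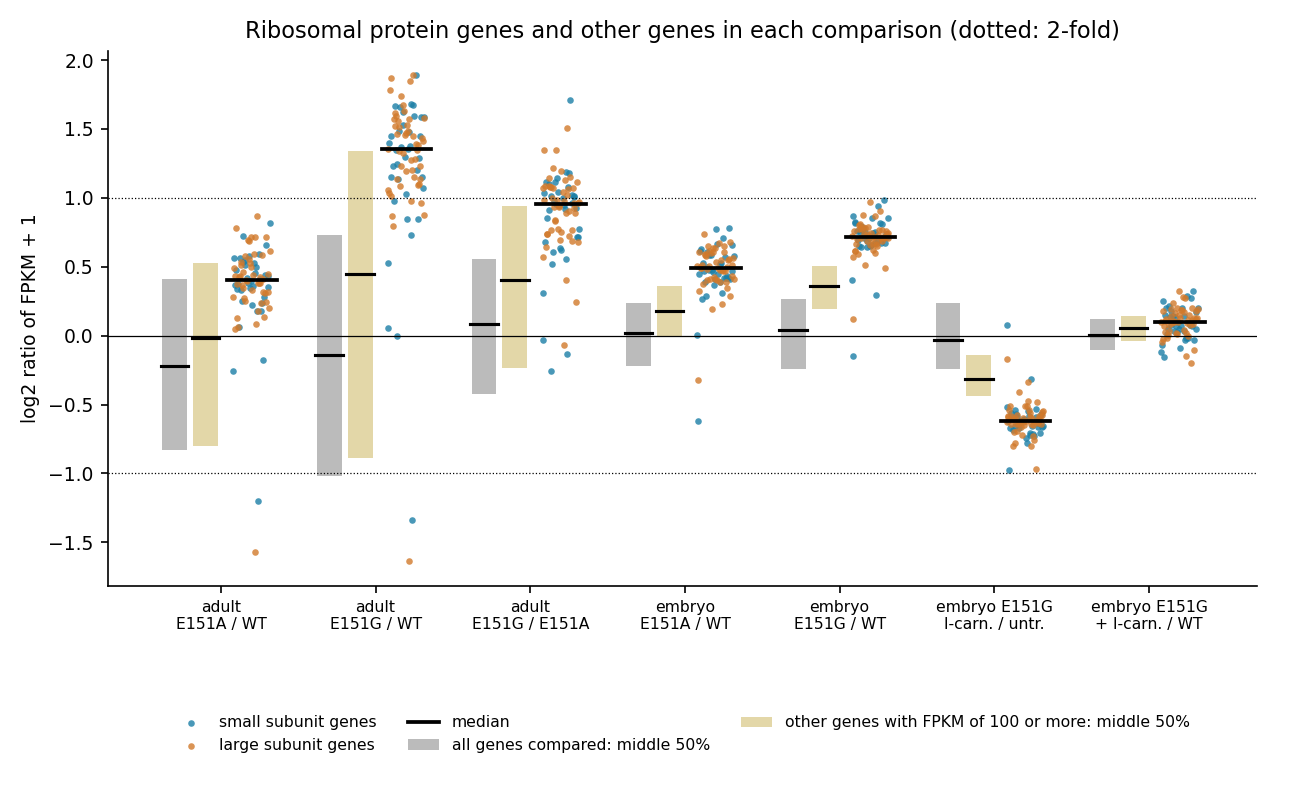
Log2 ratio of FPKM + 1 of each ribosomal protein gene (points, blue small and orange large subunit) in the 7 comparisons, beside the middle 50% of all genes compared (grey) and of other genes that reached an FPKM of 100 (yellow); black bars are medians and dotted lines mark 2-fold. The points form a tight band at 1.35 in adult TPM3(E151G), 0.72 in embryonic TPM3(E151G) and -0.62 after l-carnitine, with 2 points far below the band in the adult comparisons with TPM3(WT).

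How high the family lay depended on the scaling of the columns. Each scaling multiplies a whole column by a common factor, which shifts the family and the typical gene nearly alike. The distance between their medians was therefore nearly fixed in advance, and its stability is no check on the result. Scaling the columns to equal FPKM sums moves the log2 ratio of every well expressed gene by nearly the same amount, -0.98 in adult TPM3(E151G) and -0.09 in adult TPM3(E151A) against TPM3(WT), -0.89 between the adult mutants, -0.19 and -0.36 in the embryonic mutants and 0.29 for l-carnitine against untreated TPM3(E151G). With columns scaled to equal FPKM sums, the adult TPM3(E151G) median was 0.37, none of the 87 genes was higher by 2-fold, and 73 were higher and 14 lower. The median of all genes was then -0.91, so the family stood 1.28 above it, where it stood 1.49 above it in the deposited columns. Over the 3 other scalings the distance ranged from 0.61 to 0.66 in TPM3(E151A) (0.62 as deposited), from 1.28 to 1.5 in TPM3(E151G), and from 0.68 to 0.85 between the mutants (0.87 as deposited). Between the mutants the median itself was 0.07 under equal sums, with 56 genes higher and 30 lower of 86, so the direction of single genes there depends on the scaling.

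**Figure D3:**
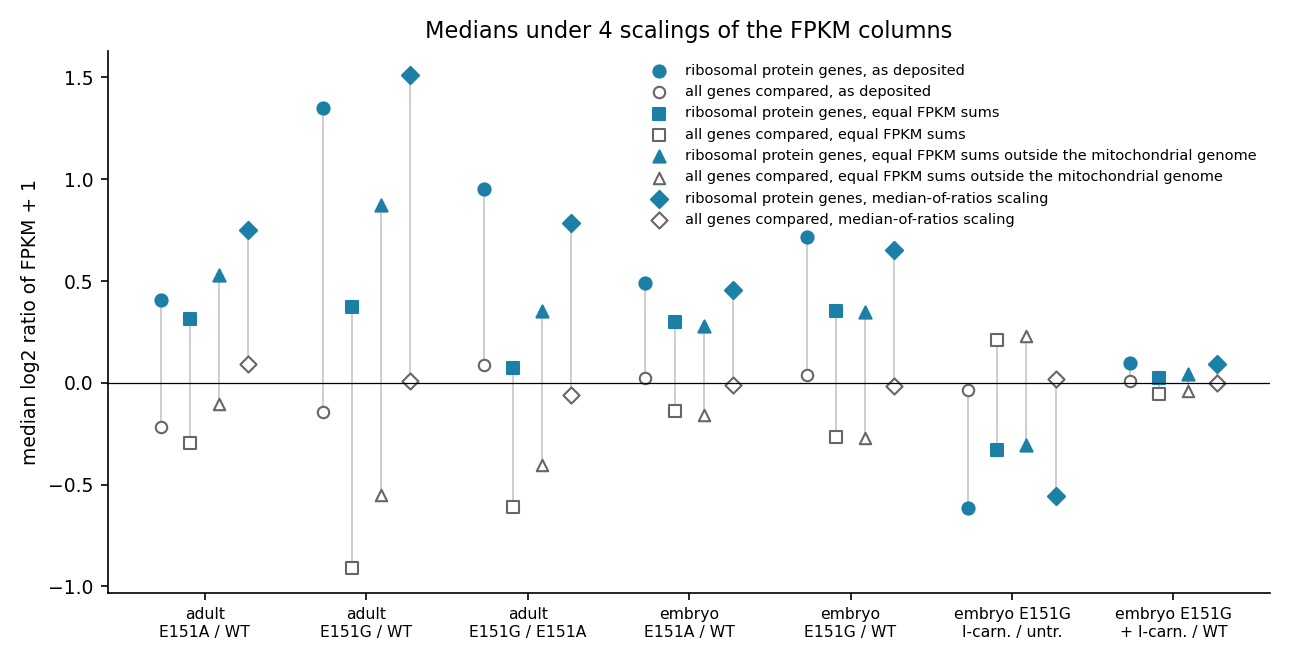
Median log2 ratio of the ribosomal protein genes (filled blue) and of all genes compared (open) in each comparison, under the deposited FPKM and 3 other scalings; a grey line joins the 2 medians of a scaling. The blue symbols move between scalings, in adult TPM3(E151G) from 0.37 to 1.51. The grey lines keep nearly the same length within a comparison because each scaling multiplies a whole column by a common factor.

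In embryos the ratios of the 87 genes formed a narrower band. In TPM3(E151A) the SD of the log2 ratio over the genes without rps19bp1 and rpl7l1 was nearly equal, 0.202 in adults and 0.196 in embryos. TPM3(E151A) had a median log2 ratio to TPM3(WT) of 0.49, against 0.02 over all 17577 genes compared and 0.18 over 1162 abundant others. Of the 87 genes 85 were higher (52.6% of all genes) and 2 lower (47.4%), none by 2-fold or more in either direction (0.99% of all genes were higher and 0.996% lower by that much). By 1.5-fold or more 24 were higher (5.02% of all genes) and 1 lower (5.57%). The highest were rps10 (0.78), rps23 (0.78), rpl17 (0.74), rps3 (0.71) and rpl4 (0.68). Among the lowest were rpl37_76360 (-0.32), rpl37_34291 (0.19) and rplp2 (0.23).

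Embryonic TPM3(E151G) stood higher still, with a median of 0.72 against 0.04 over all 17581 genes compared and 0.36 over 1168 abundant others. Of the abundant others 89.6% were higher in TPM3(E151G). Some of them may have entered that set through their value in TPM3(E151G) itself, which favors higher ratios, so the set is no independent gauge. Of the ribosomal protein genes 86 were higher (54% of all genes) and 1 lower (46%), with none past 2-fold in either direction (0.637% of all genes higher, 1.79% lower). By 1.5-fold or more 80 were higher (5.06% of all genes) and none lower (9.06%). rps10, a small subunit protein near the mRNA entry, came nearest to 2-fold, with an FPKM of 836 with WT, 1436 with E151A, 1654 with E151G and 1045 with E151G plus l-carnitine (log2 ratio 0.98). rpl11, which with Rpl5 and the smallest ribosomal RNA binds the p53 inhibitor Mdm2, had 613 with WT, 956 with E151A, 1204 with E151G and 769 with E151G plus l-carnitine (log2 ratio 0.97). rps3 (0.94), rpl24 (0.91) and rpl34 (0.88) followed. Among the lowest were rpl37_76360 (0.12), rps19bp1 (0.29) and rpl22l1 (0.49). Erythrocyte markers were ordered like the family across the 4 embryonic conditions, with a summed FPKM over 8 genes of 1151 with WT, 1714 with E151A, 2334 with E151G and 1492 with E151G plus l-carnitine, most of it from the embryonic globin gene hbae3, and their part in the result was not tested. Without rps19bp1 and rpl7l1, the SD of the log2 ratio over the genes was 0.15, against 0.35 in the adult comparison of the same genotypes.

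l-Carnitine-treated TPM3(E151G) embryos had lower mRNA levels of the ribosomal protein genes than untreated TPM3(E151G) embryos. The median log2 ratio was -0.62, against -0.04 over all 17585 genes compared and -0.31 over 1181 abundant others. Of the 87, 86 were lower (54.2% of all genes) and 1 higher (45.8% of all genes). None was past 2-fold in either direction (2.55% of all genes higher, 0.199% lower), and 62 were lower by 1.5-fold or more (2.17% of all genes) and none higher by that much (9.31%). rps29, a zinc-binding protein of the small subunit head, lay nearest to the limit, at 366 with WT, 562 with E151A, 649 with E151G and 329 with E151G plus l-carnitine (log2 ratio -0.98). rpl18, of the large subunit, was at 1068 with WT, 1512 with E151A, 1815 with E151G and 929 with E151G plus l-carnitine (log2 ratio -0.97). For both, the value with l-carnitine was the lowest of the 4 embryonic conditions. rpl17 (-0.80) and rplp2 (-0.80) followed, and among the smallest differences were those of rpl37_76360 (-0.17), rps19bp1 (-0.31), rpl7l1 (-0.34) and rpl7 (-0.41). Of these 4, rpl37_76360 turned to 0.09 under equal FPKM sums.

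Against TPM3(WT) embryos, the treated embryos had a median of 0.10, against 0.01 over all 17731 genes compared and 0.05 over 1177 abundant others. Of the 87, 73 were higher (51.6% of all genes) and 14 lower (48.4%). None was past 2-fold (1.97% of all genes higher, 0.384% lower) or past 1.5-fold (3.58% higher, 1.52% lower) in either direction. Under equal FPKM sums the median was 0.02, with 54 genes higher and 33 lower. rpl11 (0.33), rps10 (0.32), rps3 (0.28) and rpl7l1 (0.28) had the highest ratios, and among the lowest were rpl18 (-0.20), rps29 (-0.15), rplp2 (-0.15) and rpl22l1 (-0.11). The TPM3(WT) embryo library stands in 3 of these comparisons and the untreated TPM3(E151G) embryo library in 2, so a deviation of either library would move several of these ratios at once. Liver markers were higher in the treated embryos, with a summed FPKM over 5 genes of 488 with WT, 549 with E151A, 675 with E151G and 2174 with E151G plus l-carnitine. Skeletal muscle markers summed to 42608, 46783, 59386 and 41061 in that order over 12 genes. Their part in the result was not tested.

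Several genes departed from the family. rpl7l1 had an FPKM of 128 with WT, 42.4 with E151A and 40.4 with E151G in adults, and of 27.5 with WT, 44.3 with E151A, 42.8 with E151G and 33.7 with E151G plus l-carnitine in embryos. rps19bp1 had 35.4 with WT, 14.8 with E151A and 13.4 with E151G in adults, and 19.3 with WT, 24.1 with E151A, 23.8 with E151G and 19 with E151G plus l-carnitine in embryos. In adults both were highest in TPM3(WT), and in embryos both were higher in the mutants than in TPM3(WT), except that rps19bp1 in TPM3(E151G) turned to -0.05 under equal FPKM sums. The log2 ratios of rpl7l1 were -1.57 and -1.64 in the adult mutants (E151A, then E151G) and 0.67 and 0.62 in embryos. Those of rps19bp1 were -1.20, -1.34, 0.31 and 0.29 in the same order.

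**Figure D4:**
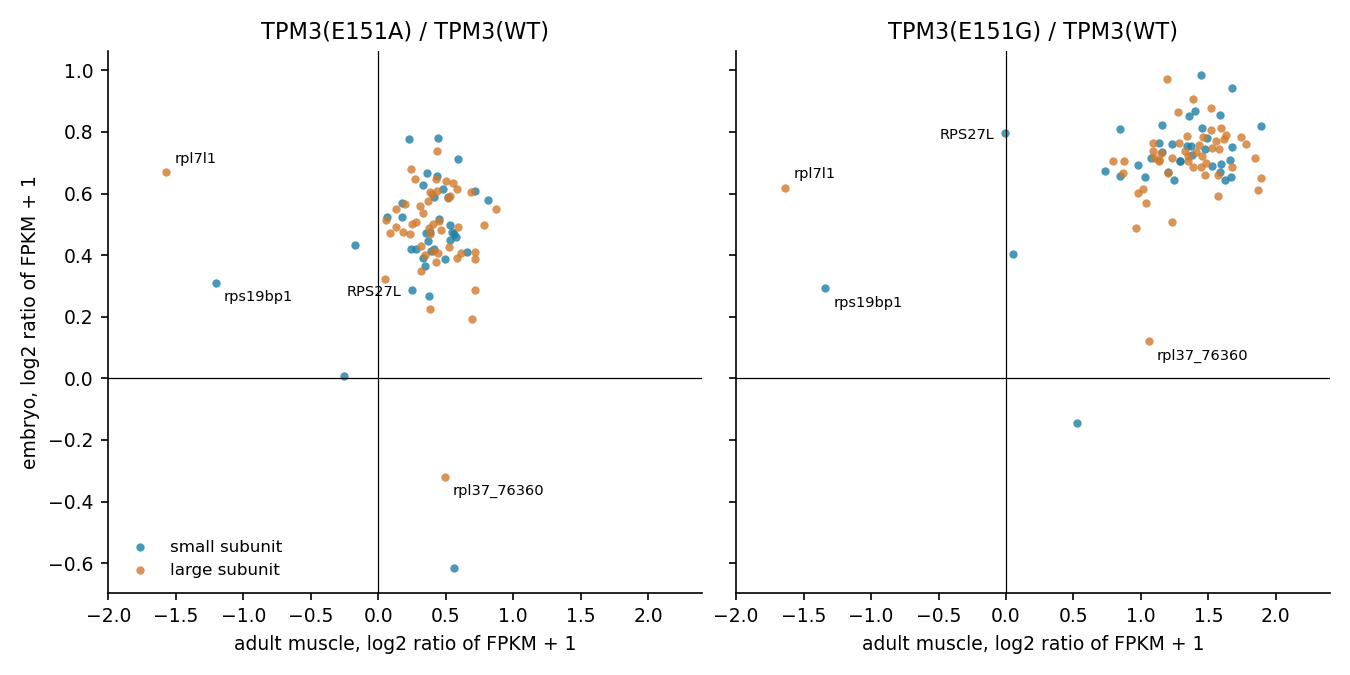
Log2 ratio to TPM3(WT) in adult muscle (horizontal) and in embryos (vertical) for TPM3(E151A) at the left and TPM3(E151G) at the right, 1 point per gene, blue small and orange large subunit. In both panels most genes form 1 cloud above 0 on both axes, while rpl7l1 and rps19bp1 lie to the left of 0.

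The mRNAs of ribosome assembly factors were mostly lower in the adult mutants, as those of these 2 genes were and those of the structural proteins were not. Of 57 such genes listed, 56 were in the tables, and their median log2 ratio was -1.26 (E151A) and -1.29 (E151G) against TPM3(WT) in adults, with 41 and 33 of 56 lower by 2-fold or more and 0 and 2 higher by that much, where 19.2% and 25.5% of all genes were lower and 9.9% and 17.4% higher by 2-fold. Under the 3 other scalings these medians stayed below 0, at -0.92 to -1.34 and -1.14 to -2.14. In adult TPM3(E151G) against TPM3(E151A) the median was 0.12 as deposited and -0.03 to -0.60 under the other scalings. In embryos it was 0.34 (E151A), 0.29 (E151G, but -0.05 under equal FPKM sums with or without the mitochondrial genome), -0.31 for l-carnitine against untreated TPM3(E151G) and -0.03 for l-carnitine against TPM3(WT), the direction of the structural proteins in the deposited columns in the first 3. ncl, the nucleolar protein nucleolin, had an adult FPKM of 223 with WT, 58.5 with E151A and 75.7 with E151G. npm1a, the nucleolar chaperone nucleophosmin, had 160.5 with WT, 67.2 with E151A and 71.6 with E151G. ebna1bp2, an early assembly factor of the large subunit, had 128 with WT, 29.1 with E151A and 45.2 with E151G. Each of these 3 was highest in TPM3(WT). rsl24d1, which holds the place of Rpl24 in the immature large subunit, went the other way, at 168 with WT, 220.0 with E151A and 352 with E151G. Ovary markers were highest in adult TPM3(WT) too (sums above), and proliferation markers summed to 1361, 507 and 288 over 11 genes in adults and to 595, 1012, 763 and 596 in embryos. Their part in these ratios was not tested.

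Ribosomal proteins are also made from genes that bear other names. faua, a fusion of a ubiquitin-like protein with Rps30, had an FPKM of 543 with WT, 709.8 with E151A and 1697 with E151G in adults and 752 with WT, 1047 with E151A, 1214 with E151G and 792 with E151G plus l-carnitine in embryos. It had log2 ratios within the band of the family, 1.64 in adult and 0.69 in embryonic TPM3(E151G). faub, the second fau gene, did not, at 147 with WT, 34.9 with E151A and 33.4 with E151G in adults and 4.42 with WT, 3.64 with E151A, 4.64 with E151G and 4.96 with E151G plus l-carnitine in embryos. Its adult log2 ratios were -2.04 and -2.11.

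The other mRNAs known for a 5′ terminal oligopyrimidine tract, such as those of elongation factors, mostly had medians between those of the family and of the abundant others. The exception was l-carnitine against TPM3(WT), at 0.04, where the family had 0.10 and the abundant others 0.05. The abundant others include the abundant genes of this list. Of 24 genes listed, 22 were in the tables and 21 or 22 were compared. Their median log2 ratio was 0.09 and 0.68 in the adult mutants (E151A, then E151G), 0.41 and 0.42 in the embryonic mutants and -0.34 with l-carnitine against TPM3(E151G). The abundant others had medians of -0.02 and 0.45, 0.18 and 0.36, and -0.31 in the same order. In embryonic TPM3(E151G) and with l-carnitine the list thus lay near the abundant others. The list's median in adult TPM3(E151G) turned to -0.12 under equal FPKM sums. It was 0.34 and 0.78 under the 2 other scalings, so its direction depends on the scaling. Under equal sums the list's embryonic TPM3(E151G) median was 0.06 and that with l-carnitine -0.05. In adult TPM3(E151G) 8 of 21 were higher by 2-fold or more and 3 lower (17.4% and 25.5% of all genes). tpt1, a translationally controlled growth protein, had an adult FPKM of 1368 with WT, 2073 with E151A and 3026 with E151G. eef1g, a subunit of elongation factor 1, had 1108 with WT, 1332 with E151A and 2523 with E151G. eef2b, the factor that moves the ribosome along the mRNA, had 538 with WT, 335 with E151A and 447 with E151G, highest in TPM3(WT). naca, which binds nascent chains at the ribosome, had 570.2 with WT, 608 with E151A and 1052 with E151G.

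Genes for proteins of the mitochondrial ribosome, which translates the mRNAs of the mitochondrial genome, had negative medians in both adult mutants against TPM3(WT). The 76 genes had a median log2 ratio of -0.64 (E151A) and -0.28 (E151G) in the adult mutants, with 71 and 45 of 76 lower (59% and 53.9% of all genes), so the second count lay near the share of all genes. Between the adult mutants the median was 0.30 with 61 of 76 higher (54.8% of all genes), the direction of the cytosolic genes, but -0.55 under equal FPKM sums. In embryos the median was 0.24 (E151A), 0.44 (E151G) and, for l-carnitine against untreated TPM3(E151G), -0.41, with 70, 76 and 0 of 76 higher (52.6%, 54% and 45.8% of all genes). No scaling changed the sign of the 2 adult medians against TPM3(WT) or of these 3, though equal FPKM sums brought the embryonic ones to 0.05, 0.10 and -0.14. The difference between the medians of the cytosolic and the mitochondrial list was therefore smaller in embryos than in adults, and was not tested. Genes of the integrated stress response and of mTOR signaling had medians of -0.57 and 0.14 in the adult mutants and 0.15 and 0.19 in the embryonic mutants over 15 genes. All but the first of these turned negative under equal FPKM sums, at -0.71, -0.04 and -0.17, so no direction is given for them. ddit4, an inhibitor of mTOR, had 65.9 with WT, 48.5 with E151A and 195 with E151G, and atf4a, a transcription factor of the stress response, had 182 with WT, 123 with E151A and 155 with E151G. eif4ebp3l, a repressor of cap-dependent translation below mTOR, had 160.0 with WT, 129.8 with E151A and 289 with E151G, and eif4ebp2, a relative of it, had 75.8 with WT, 76.0 with E151A and 96.7 with E151G.

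Zebrafish keep duplicate copies of some ribosomal protein genes, and for the pairs of rpl22, rplp2 and rpl5 the shares in adults and in embryos did not overlap. rpl22l1, the relative of rpl22 that in mice is repressed by Rpl22, took 13.2% (WT), 16.5% (E151A) and 9.15% (E151G) of the pair's FPKM in adults. In embryos it took 37.7%, 35.8%, 33.2% and 32.9% from TPM3(WT) to l-carnitine. The FPKM of rpl22l1 itself was 102 with WT, 169 with E151A and 200.4 with E151G in adults and 398 with WT, 485 with E151A, 558 with E151G and 369 with E151G plus l-carnitine in embryos, and that of rpl22 was 674 with WT, 857 with E151A and 1990.1 with E151G and 658 with WT, 869 with E151A, 1124 with E151G and 753 with E151G plus l-carnitine. The level of rpl22l1 was higher in each embryonic condition than in any adult genotype. The deposited FPKM of rpl22 was nearly equal in both controls, whose columns summed to 712329 in adults and 575410 in embryos.

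rplp2l, a second gene for the stalk protein Rplp2, took 65.6%, 63.8% and 56.5% in the 3 adult genotypes and 87.1% to 90.1% in embryos. In adult TPM3(E151G) rplp2l stood at 1548 with a log2 ratio of 1.34, near the median of the family, while rplp2 had the highest ratio of all 87. rpl5b took 66.6%, 57% and 56.7% of the rpl5a and rpl5b total in adults and 40.1% to 43.6% in embryos, so the more abundant copy was rpl5b in adults and rpl5a in embryos. The adult FPKM of rpl5a was 379.9 with WT, 625 with E151A and 1056 with E151G, and that of rpl5b 757 with WT, 829 with E151A and 1382 with E151G. The pairs of rps26 and rps27 were shared about evenly, but their shares did not overlap between the ages either. rps26l took 42.4% to 49.3% in adults and 51.1% to 53% in embryos. rps27.2 took 53.4% to 55.5% in adults and 47.6% to 51% in embryos. Reads from near-identical copies could be split between them in the authors' counting, so the division within a pair is less certain than its sum.

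**Figure D5:**
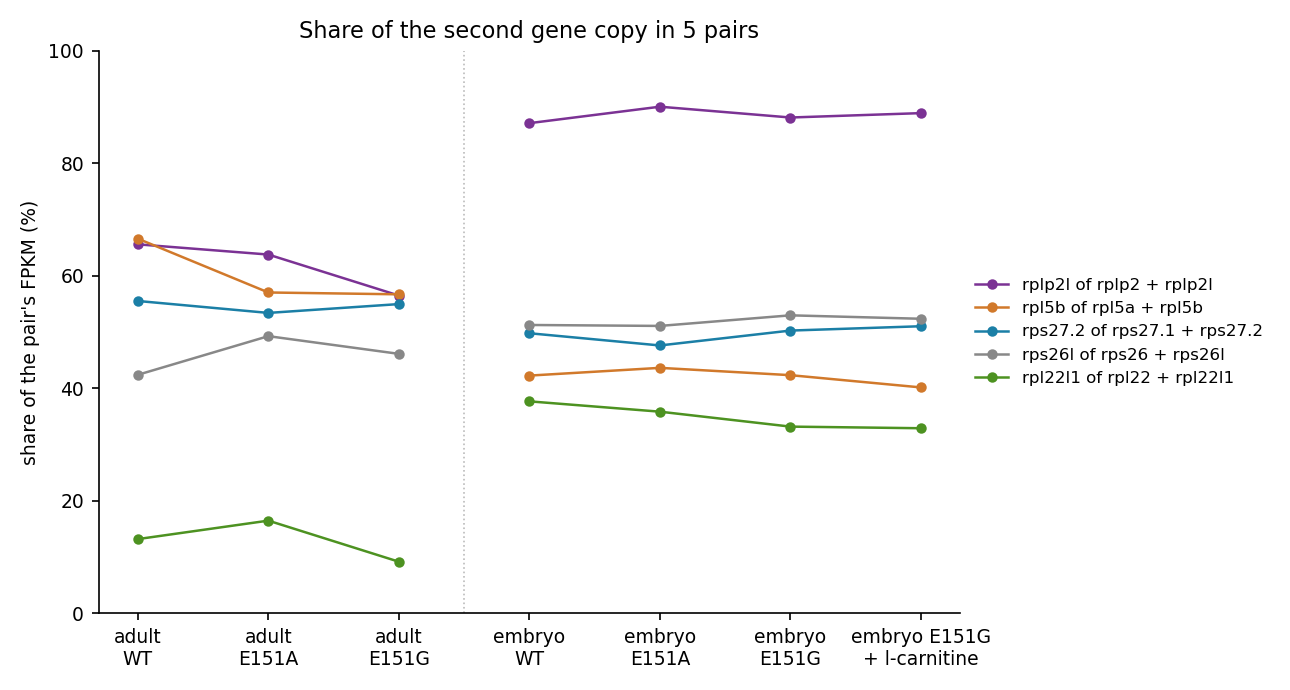
Share of the second copy in the summed FPKM of 5 gene pairs (%) in 3 adult and 4 embryonic conditions, 1 value per condition. The lines of rplp2l (56.5% to 65.6% in adults, 87.1% to 90.1% in embryos), rpl22l1 (9.15% to 16.5%, then 32.9% to 37.7%) and rpl5b (56.7% to 66.6%, then 40.1% to 43.6%) sit at separate heights on the 2 sides of the dotted line.

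Other copies differed in single conditions. RPS27L, a relative of rps27 known as a p53 target in human cells, had 40.9 with WT, 49.0 with E151A and 40.7 with E151G in adults and 18.7 with WT, 23.0 with E151A, 33.2 with E151G and 20.6 with E151G plus l-carnitine in embryos. In adult TPM3(E151G) RPS27L had a log2 ratio of -0.01, where rps27.1 and rps27.2 had 1.38 and 1.34. In embryonic TPM3(E151G) it stood with them, at 0.80, 0.73 and 0.75. rpl37_76360 on chromosome 2, at 13.4 with WT, 19.2 with E151A and 28.9 with E151G in adults, bears the same name as rpl37_34291 on chromosome 21, at 581 with WT, 941 with E151A and 1859 with E151G, but the table of gene names lists its ID as COA1, so its identity is doubtful.

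Between the 2 ages, the TPM3(WT) controls differed in other single genes. Across tables, the median log2 ratio of embryonic to adult TPM3(WT) was 0.24 over the 87 genes, with tissue and age changing together. No median over all genes was computed beside it. The median FPKM of nuclear protein-coding genes was 1.69 in adult and 3.00 in embryonic TPM3(WT), while the columns summed to 712329 and 575410. rpl31 (1.27), rpsa (1.10), which also serves as a laminin receptor, and rpl39 (1.08) were higher in embryonic TPM3(WT) beside rpl22l1 (1.95) and rplp2l (1.45). With E151G, rpl31 stood at 989.9 in adults and 1001 in embryos, where the columns summed to 1404367 and 739917. The family medians were 1697 and 1303, so rpl31 lay further below the family in adults. rpl7l1 (-2.18), RPS27L (-1.09) and rps28 (-1.03) were among those higher in adult than in embryonic TPM3(WT). For rpl7l1 this held with WT only, at 128 in adults and 27.5 in embryos. In the same order it stood at 42.4 and 44.3 with E151A and at 40.4 and 42.8 with E151G. Ovary markers also had their highest sum in adult TPM3(WT), at 3439, and their part in this was not tested. rps28, a small protein at the mRNA exit of the small subunit, stood at 1139.8 with WT, 1448 with E151A and 2796 with E151G in adults and at 558 with WT, 719 with E151A, 911 with E151G and 597 with E151G plus l-carnitine in embryos. Adult and embryonic tables share no condition, so whether they were normalized together cannot be told from them.

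The genes lie on all 25 chromosomes and on 1 unplaced scaffold, in coordinates of GRCz11 as the tables give them. rps19 lies at chromosome 16, 24274932 to 24280294, rps25 at chromosome 10, 39182356 to 39187699, rplp2 at chromosome 6, 49510151 to 49511900, rpl31 at chromosome 9, 56637733 to 56644520 and rpl22l1 at chromosome 24, 26330140 to 26334800. Of the 87 loci, 25 also hold snoRNA or scaRNA genes, 63 such genes in all, and 15 also hold another protein-coding gene. The loci of rps19bp1 and rpl7l1 are among these 15, with 20 and 7 other protein-coding genes listed under the same interval, so the interval is wider than the gene. The same holds for genes within the band of the family, such as rpl26 with 11 other protein-coding genes and rpl17 with 3. Without the 15 genes the adult TPM3(E151G) median was 1.35 over 72 genes, as with them.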

How the data were processed

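RNA of adult muscle and of samples labelled as whole embryos was sequenced as ribosomal RNA-depleted total RNA libraries. The study's methods also name a strand-specific RNA kit (SureSelect) for library construction. The submitters' processing notes name bcl2fastq 2.20, Trimmomatic 0.36, HISAT2, featureCounts 1.6.3 and DESeq2 1.22.2, and the build GRCz11 with Ensembl release 99. The FPKM values are as the authors deposited them, in 7 tables of 2 conditions with 32265 genes each, with both adult libraries of a genotype combined by the authors. For the FPKM calculation itself no tool is named in the labels or the study's methods. The tables also hold the authors' fold changes and p-values, which were not used.

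The members and gene lists were chosen with earlier results of these data known. A condition found in several tables had the same value in each for all 87 members. Genes were compared where FPKM was at least 1 in either condition, as log2(FPKM + 1) differences, with the median, the range, and the number past 2-fold over the members and over all genes. The design called for a test on per-library values. With 1 column per condition there was none, and no p-value is given. Whether 2 libraries of a genotype came from separate fish, and how deep they were, is not stated there either. Named genes were the 5 highest and 5 lowest ratios and, by count, those past 2-fold in each comparison, the 5 highest FPKM in each TPM3(WT), paralog pairs, rps6, rpl11, rps19, rpl5a, rpl5b, rpl22 and rpl22l1, and up to 4 genes of each other list. Results for some of these genes are not reported here. Genes named for embryo against adult were chosen by size after their values were seen. Alternatives were 3 scalings, a pseudocount of 0.1, no minimum or a minimum of 5, a limit of 1.5-fold, and sets without rps19bp1 and rpl7l1 or, added after seeing the data, without members that share a locus and the 3 scalings for the other lists. Python 3.11.15, pandas 2.3.3, numpy 2.4.6 and matplotlib 3.10.9 were used, and the code was tested on simulated data.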

Additional observations from a re-analysis of the deposited data

Results flagged for a closer look

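rpl7l1, rps19bp1 and rpl37_76360 were among the genes with log2 ratios to TPM3(WT) of opposite sign in adult muscle and in embryos, with a size of at least 0.25 on both sides. The difference between the ages was not tested for any of them, since each age gives 1 value per condition. For rpl7l1 the adult ratio minus the embryonic ratio was -2.24 for TPM3(E151A) (-1.57 in adults, 0.67 in embryos) and -2.26 for TPM3(E151G) (-1.64 and 0.62). For rps19bp1, whose embryonic TPM3(E151G) ratio turned to -0.05 under equal FPKM sums so that the signs were then alike, it was -1.51 for TPM3(E151A) (-1.20 and 0.31) and -1.63 for TPM3(E151G) (-1.34 and 0.29). rpl37_76360, whose identity is doubtful, differed by 0.81 for TPM3(E151A) (0.49 and -0.32), where its embryonic FPKM was 7.80 and 6.05.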

How the results depend on the processing

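No median of the family changed sign under any alternative. With equal FPKM sums the medians were 0.37 for adult TPM3(E151G) against TPM3(WT), 0.071 for adult TPM3(E151G) against TPM3(E151A), 0.30 and 0.35 in embryonic TPM3(E151A) and TPM3(E151G), and -0.33 for l-carnitine against untreated TPM3(E151G). In the 2 comparisons of adult TPM3(E151G) 0 members were then higher by 2-fold, and 1 was lower than in TPM3(E151A). With equal sums outside the mitochondrial genome the medians were 0.53, 0.87 and 0.35 in the 3 adult comparisons and 0.28, 0.35 and -0.31 in the same embryonic ones, and 28 and 1 members were higher by 2-fold in adult TPM3(E151G) against TPM3(WT) and TPM3(E151A). With median-of-ratios scaling the adult medians were 0.75, 1.51 and 0.79, 10 members were higher and 1 lower by 2-fold in adult TPM3(E151A), and 8 were higher between the mutants. With a limit of 1.5-fold, 13 were higher in adult TPM3(E151A), 77 between the adult mutants, 24 higher and 1 lower in embryonic TPM3(E151A), 80 higher in embryonic TPM3(E151G) and 62 lower with l-carnitine. Without rps19bp1 and rpl7l1, and without the members that share a locus, 0 members were lower by 2-fold in either adult mutant against TPM3(WT). A pseudocount of 0.1, no minimum, and a minimum of 5 left every median within 0.1 and every count of members within 1.5 times. No paired analysis was possible because the adult columns combine both libraries of a genotype, and for the same reason no library could be left out. Depth was unknown, so the precision of low values cannot be given.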
